A study of Mus musculus with 47 samples.

Results

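The genes described here are transcripts of the intestinal absorptive cell, the enterocyte, and of its HNF4 transcription factors, as they were read by RNA-seq in medullary thymic epithelial cells (mTECs) of C57BL/6 mice. They number 10 of the 53402 genes listed for adult libraries and of the 55471 listed for neonatal libraries: Hnf4a, Hnf4g, Vil1, Fabp1, Apoa4, Muc13, Reg3g, Adgrg7, Lypd8 and 2210407C18Rik. The first 7 were named as known enterocyte and HNF4 genes. Adgrg7, Lypd8 and 2210407C18Rik were chosen by their measured fold change, being among the genes that fell most when EED was lost in neonatal cells, so in neonates these 3 genes are described by their values only, without a test.

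Thymic cells were sorted as CD45-, EpCAM+ and Ly51-, and split into mTEChi and mTEClo by whether they carried much or little MHC class II, and each library holds the RNA of 1 such sorted population. The adult mice were WT (7 mTEChi and 8 mTEClo libraries from mice of both sexes aged 4 or 5 weeks) or AireKO (4 mTEChi and 4 mTEClo libraries, all from males aged 5 or 6 weeks). The neonatal mice, aged 1 to 6 days, were Ctrl (5 mTEChi and 3 mTEClo libraries), EEDcKO (3 and 4), AireKO (3 mTEChi) or AireEEDdKO (3 and 3), and some of their libraries pooled male and female animals. All AireKO and AireEEDdKO libraries came from mice aged 4 or 6 days, and Ctrl mTEClo from mice aged 1 to 3 days. Ctrl mTEChi and both EEDcKO gates spanned 1 to 6 days. Age therefore differed between some of the neonatal groups compared. EED, a core subunit of the Polycomb repressive complex PRC2, was deleted by a Cre recombinase driven by Foxn1 and therefore active in thymic epithelium, and AireEEDdKO mice came from crossing EEDcKO with AireKO mice. The alleles carried by Ctrl mice are not spelled out in the labels.

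mTECs transcribe genes of many peripheral organs, which exposes developing T cells to those self-antigens. The nuclear protein AIRE drives a large share of this ectopic transcription, and small mTEC subsets that resemble cells of other organs, called mimetic cells, use the transcription factors of the organ they resemble. HNF4A and HNF4G are closely related nuclear receptors that maintain the enterocyte programme in the gut, where their targets include genes of the brush border and of lipid transport. PRC2 deposits the repressive histone mark H3K27me3.

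Total counts ran from 1602125 to 3938588 in the adult libraries and from 1578579 to 4817418 in the neonatal ones. Levels are given as counts scaled to the library's total after TMM normalisation (CPM), and 3 counts, the limit below which a gene may be missed, amounted to between 0.616 and 2.07 CPM. Aire ran from 753 to 921 CPM in WT mTEChi and from 17.1 to 39.3 in adult AireKO mTEChi. Neonatal mTEChi held 464 to 808 CPM of Aire in Ctrl and 603 to 1072 in EEDcKO. The neonatal AireKO libraries (44.8 to 115 CPM) were all above the AireEEDdKO mTEChi ones (9.94 to 32.35), so these groups differed in remaining Aire reads. In neonatal mTEChi, Eed ran from 20.4 to 38.8 CPM in Ctrl, from 34.9 to 48.2 in AireKO, from 10.7 to 19.8 in EEDcKO and from 11.6 to 17.1 in AireEEDdKO. Eed transcripts thus stayed detectable in every library of the deleted groups. In the adult table, 6 libraries (all 4 mTEChi AireKO, and mTEClo AireKO replicates 3 and 4) held no count for any of the 37 mitochondrial genes, and the other 17 held between 6178 and 10339 such counts. In adult mTEChi, genotype and this kind of library therefore cannot be told apart.

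All 10 genes were detected and tested in both tables, and every one had counts in each of the 7 WT mTEChi and 5 neonatal Ctrl mTEChi libraries. Since these are sorted populations in bulk, fewer cells of a type and less RNA per cell cannot be told apart. Medullary thymic markers were read in the same libraries, with a summed level over 11 genes between 3960 and 4846 CPM in WT mTEChi. Other genes of the intestinal epithelium were present too, with counts for 25 of 25 brush border enzymes and transporters, 19 of 19 genes of lipid uptake and 20 of 20 intestinal transcription factors in that group.

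Set against the length of their exons, the 10 genes spanned a wide range of levels. In WT mTEChi, Lypd8, a surface protein that keeps bacteria away from the colon lining, averaged 115 CPM per kb, and Reg3g, a secreted lectin that kills Gram-positive bacteria, averaged 114. 2210407C18Rik followed at 76.0 CPM per kb. The next genes lay close together: Apoa4, an apolipoprotein of chylomicrons, at 33.1, Adgrg7, an adhesion G protein-coupled receptor, at 30.8, Hnf4g at 27.4, Muc13, a transmembrane mucin, at 25.4 and Vil1, the actin-bundling protein of microvilli, at 24.4 CPM per kb. Fabp1, which carries fatty acids in the cytosol, averaged 14.8 and Hnf4a 3.07 CPM per kb. The ranges over libraries overlapped for neighbours in this order, except between 2210407C18Rik and Apoa4 and between Fabp1 and Hnf4a. Neonatal Ctrl mTEChi had Reg3g first at 93.3 CPM per kb, then Lypd8 at 61.4 and 2210407C18Rik at 53.8, and again Hnf4a last at 2.05. Hnf4g, at 19.1 CPM per kb there, was above Hnf4a at both ages.

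Promoter windows of 8 members are printed here: 7 that hold letters bound by the gut's regulators, and that of Vil1, which holds none of those searched. Each is the RefSeq window on GRCm38.p6, read 5′ to 3′ on the gene's strand, from 250 bases before to 50 bases after an annotated start. Capitals mark matches, on either strand, to motifs of the HNF4, HNF1, CDX and GATA factors and to the TATA box.
Hnf4a, chr2:163546905-163547204, plus strand: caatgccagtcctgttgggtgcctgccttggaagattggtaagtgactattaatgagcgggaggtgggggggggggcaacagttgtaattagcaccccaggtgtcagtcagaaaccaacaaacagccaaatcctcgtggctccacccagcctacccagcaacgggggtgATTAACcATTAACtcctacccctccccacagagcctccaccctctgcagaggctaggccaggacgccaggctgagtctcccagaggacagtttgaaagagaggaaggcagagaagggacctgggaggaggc
Vil1, chr1:74409134-74409433, plus strand: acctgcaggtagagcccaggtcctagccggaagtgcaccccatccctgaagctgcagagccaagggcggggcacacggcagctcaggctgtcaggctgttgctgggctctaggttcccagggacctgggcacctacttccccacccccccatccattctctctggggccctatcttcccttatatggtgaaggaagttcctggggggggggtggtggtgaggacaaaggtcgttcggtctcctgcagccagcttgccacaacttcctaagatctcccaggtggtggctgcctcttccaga
Fabp1, chr6:71199629-71199928, plus strand: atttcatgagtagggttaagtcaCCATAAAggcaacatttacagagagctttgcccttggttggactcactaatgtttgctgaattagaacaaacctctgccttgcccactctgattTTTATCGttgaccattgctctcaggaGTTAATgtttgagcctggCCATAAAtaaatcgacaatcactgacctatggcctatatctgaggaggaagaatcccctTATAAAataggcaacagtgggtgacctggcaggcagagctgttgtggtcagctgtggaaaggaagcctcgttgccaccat
Apoa4, chr9:46240594-46240893, plus strand: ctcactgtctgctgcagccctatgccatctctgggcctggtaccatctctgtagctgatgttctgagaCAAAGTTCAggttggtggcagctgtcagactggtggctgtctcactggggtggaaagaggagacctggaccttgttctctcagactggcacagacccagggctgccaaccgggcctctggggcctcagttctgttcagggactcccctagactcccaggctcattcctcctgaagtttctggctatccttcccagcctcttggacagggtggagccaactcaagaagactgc
Muc13, chr16:33794239-33794538, plus strand: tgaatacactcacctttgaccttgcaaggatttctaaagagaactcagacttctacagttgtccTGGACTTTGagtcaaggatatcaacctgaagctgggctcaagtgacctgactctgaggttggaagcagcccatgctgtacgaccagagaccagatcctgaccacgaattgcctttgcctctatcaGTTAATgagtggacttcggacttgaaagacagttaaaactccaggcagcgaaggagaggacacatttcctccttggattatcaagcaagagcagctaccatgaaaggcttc
Adgrg7, chr16:56795809-56796108, minus strand: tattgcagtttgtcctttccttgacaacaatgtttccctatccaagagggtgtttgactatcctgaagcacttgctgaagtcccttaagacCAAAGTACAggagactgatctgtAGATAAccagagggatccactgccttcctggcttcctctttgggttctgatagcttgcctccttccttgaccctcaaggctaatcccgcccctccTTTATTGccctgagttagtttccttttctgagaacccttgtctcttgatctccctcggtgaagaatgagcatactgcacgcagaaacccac
Lypd8, chr11:58380396-58380695, plus strand: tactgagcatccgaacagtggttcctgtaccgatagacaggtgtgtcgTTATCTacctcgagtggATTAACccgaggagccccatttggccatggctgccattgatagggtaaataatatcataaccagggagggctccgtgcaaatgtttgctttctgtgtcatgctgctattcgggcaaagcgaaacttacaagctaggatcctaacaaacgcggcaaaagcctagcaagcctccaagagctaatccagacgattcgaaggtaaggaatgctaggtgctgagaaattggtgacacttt
2210407C18Rik, chr11:58613443-58613742, minus strand: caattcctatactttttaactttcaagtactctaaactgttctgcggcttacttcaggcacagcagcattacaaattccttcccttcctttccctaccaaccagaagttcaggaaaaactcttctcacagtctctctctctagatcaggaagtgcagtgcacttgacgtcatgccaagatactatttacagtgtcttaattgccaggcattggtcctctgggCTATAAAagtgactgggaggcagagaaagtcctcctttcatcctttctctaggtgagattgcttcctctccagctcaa

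Windows were found for 9 of the 10 genes. The HNF4 letters, CAAAGNNCA, stood in 3 of these 9 genes (Apoa4, Muc13 and Adgrg7), against 7.27% of 27025 genes with such a window. Counted from the start, the match lay from -182 to -174 in Apoa4, from -186 to -178 in Muc13 and from -159 to -151 in Adgrg7. The letters GTTAAT, one arm of the HNF1 palindrome, stood in 4 genes (Hnf4a, Fabp1, Muc13 and Lypd8) against 8.24% of all genes, and the Hnf4a window held it as a pair, from -81 and from -74. The CDX letters TTTATNG stood in 4 genes (Fabp1, Reg3g, Adgrg7 and 2210407C18Rik) against 12.5%, the letters AGATAA of GATA factors in 3 (Hnf4a, Adgrg7 and Lypd8) against 12.7%, and the letters TATAAA of the core promoter in 3 (Fabp1, Reg3g and 2210407C18Rik) against 15.7%. The reverse of a CDX match can contain the core promoter letters, and in Reg3g and 2210407C18Rik the matches overlapped in this way, so they are not independent. The Vil1 window held none of the 5 motifs, although Vil1 fell in each of the 3 comparisons of EED loss. Hnf4a, Muc13 and Lypd8 each have a further annotated start, and for Muc13 and Lypd8 the upstream window held no match. The GATA letters of Hnf4a lay in its upstream window, which is not printed, from -52 to -47.

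**Figure D1:**
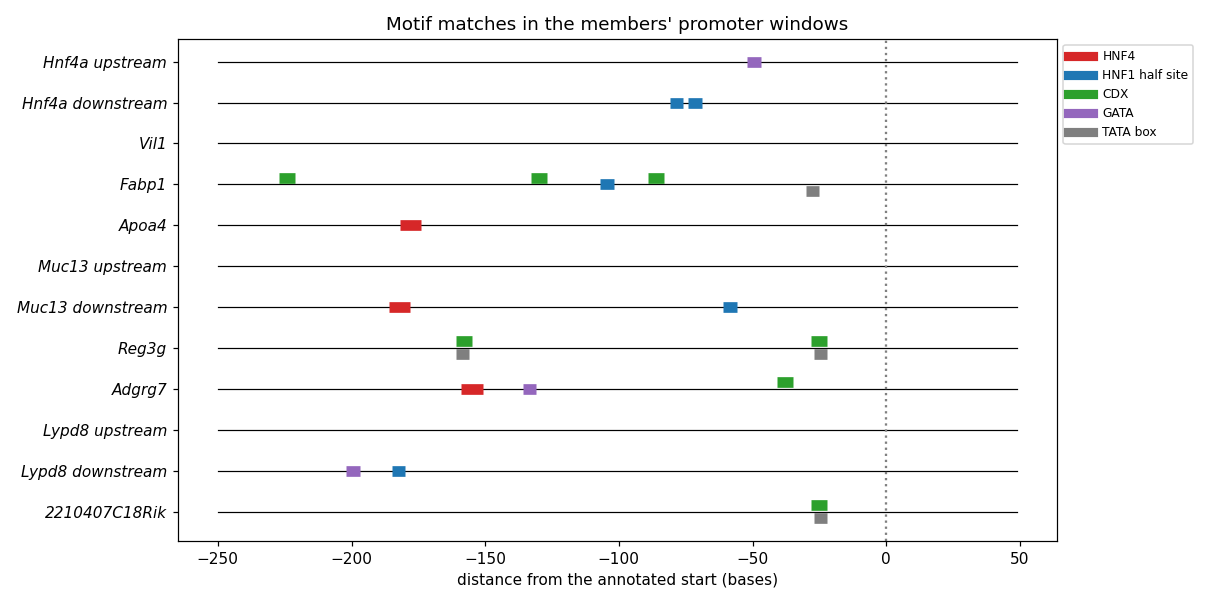
Motif matches in the promoter windows of 9 members, by distance in bases from the annotated start (dotted line), with 1 line per window and 1 colour per motif. HNF4 matches lie between -186 and -151 in Apoa4, Muc13 and Adgrg7, and the Fabp1 window holds 5 matches.

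To ask how these genes change with maturation, mTEChi were compared with mTEClo. In adult WT, 8 of the 10 genes were called higher in mTEChi (edgeR quasi-likelihood test, adjusted p under 0.05 and at least 2-fold), against 23.7% of all genes tested. Apoa4 ran from 3.00 to 15.9 CPM in mTEClo with a median of 8.70, and from 47.1 to 67.5 in mTEChi with a median of 63.1. Its log2 difference was 2.82 (SE 0.22, adjusted p = 3.68e-12). Every mTEChi library was above every mTEClo library. Lypd8 ran from 9.89 to 67.2 CPM (median 21.6) in mTEClo and from 119 to 187 (median 142) in mTEChi, a log2 difference of 2.61. The high mTEClo value came from replicate 1, and the groups did not overlap even with it. 2210407C18Rik rose by 2.53, Adgrg7 by 1.93, Hnf4g by 1.82 and Fabp1 by 1.44 on the log2 scale, each without overlap of the libraries.

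Hnf4a and Vil1 were called at the edge of the 2-fold minimum, with log2 differences of 1.06 and 1.04. For Hnf4a the difference was between 0.94 and 0.99, under that minimum, without mTEChi WT replicate 3 or mTEClo WT replicate 6, 7 or 8. For Vil1 it was between 0.97 and 0.99 without mTEClo WT replicate 4, 7 or 8. Muc13 differed by 0.96 (adjusted p = 0.00036), just short of 2-fold, and Reg3g by 0.40 (adjusted p = 0.059). Muc13 passed 2-fold with males alone (1.24), with age in weeks as a term (1.14) and without mTEClo WT replicate 1 (1.16) or 5 (1.02) or mTEChi WT replicate 6 (1.061).

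Markers of other cell types also differed between these gates. All 7 myeloid markers were higher in WT mTEChi (38.2 to 69.3 CPM summed in mTEClo, 289 to 356 in mTEChi), as were 6 of 7 thymocyte markers, and 9 of 10 tuft markers were lower. Their part in the differences of the 10 genes was not tested. Among lists that hold none of the 10 genes, 19 of 23 brush border enzymes and transporters, 14 of 16 genes of lipid uptake and 9 of 18 intestinal transcription factors were higher in WT mTEChi, with none lower. Of all genes, 23.7% were called higher and 12.4% lower.

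In adult AireKO the same comparison called 7 of the 10 genes higher, against 18.5% of all genes. Apoa4 measured 5.95, 1.25, 1.79 and 0 CPM in mTEClo and 32.0, 32.7, 38.3 and 36.8 in mTEChi, a log2 difference of 4.25. Lypd8 measured 27.6, 11.9, 19.95 and 13.6 CPM in mTEClo and between 198 and 251 in mTEChi, a log2 difference of 3.64. In both genes the groups were far apart. Adgrg7 (3.12), Hnf4g (2.26), 2210407C18Rik (2.10), Muc13 (1.32) and Fabp1 (1.31) were the others called on the log2 scale. The Fabp1 call rested on single libraries, since it was lost without mTEChi AireKO replicate 2 (adjusted p = 0.062) or 3 (0.09) or mTEClo AireKO replicate 4 (0.15). Vil1 differed by 1.00 (adjusted p = 1.64e-05) and Reg3g by 0.89, both short of 2-fold although no libraries overlapped, and Hnf4a by 0.57 (SE 0.55, adjusted p = 0.39). Reg3g passed 2-fold without mTEClo AireKO replicate 4 (1.19), and Vil1 without replicate 1 of mTEClo (1.12) or of mTEChi (1.03). With the 6 libraries free of mitochondrial counts alone, 6 genes were called: Vil1 was gained at 1.04, Muc13 was lost at 0.97 and Fabp1 was no longer tested.

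In neonatal Ctrl, 6 of the 7 genes open to a test were called higher in mTEChi, against 13.8% of all genes. Fabp1 had 3, 2 and 0 counts in mTEClo and 8, 10, 25, 18 and 17 in mTEChi, a log2 difference of 2.92 (SE 0.70, adjusted p = 0.0029). Hnf4g measured 14.2, 13.0 and 6.19 CPM in mTEClo and between 47.4 and 56.4 in mTEChi, a difference of 2.13. Both genes were higher in every mTEChi library. Hnf4a (1.80), Muc13 (1.68) and Vil1 (1.40) were also called, and these 5 calls were kept with any 1 library left out. Apoa4 differed by 1.91 at an adjusted p of 0.042, which rose to between 0.055 and 0.13 when any library but mTEChi Ctrl replicate 1 was left out and to 0.061 with age in days in the model. Reg3g was not called, at 0.63 (adjusted p = 0.039). The added genes differed in the same direction, Adgrg7 by 2.39, 2210407C18Rik by 2.23 and Lypd8 by 1.97. In this comparison 6 of 7 cortical thymic epithelial markers were lower in mTEChi (2417 to 3608 CPM summed in mTEClo, 449 to 1108 in mTEChi), and their part was not tested.

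**Figure D2:**
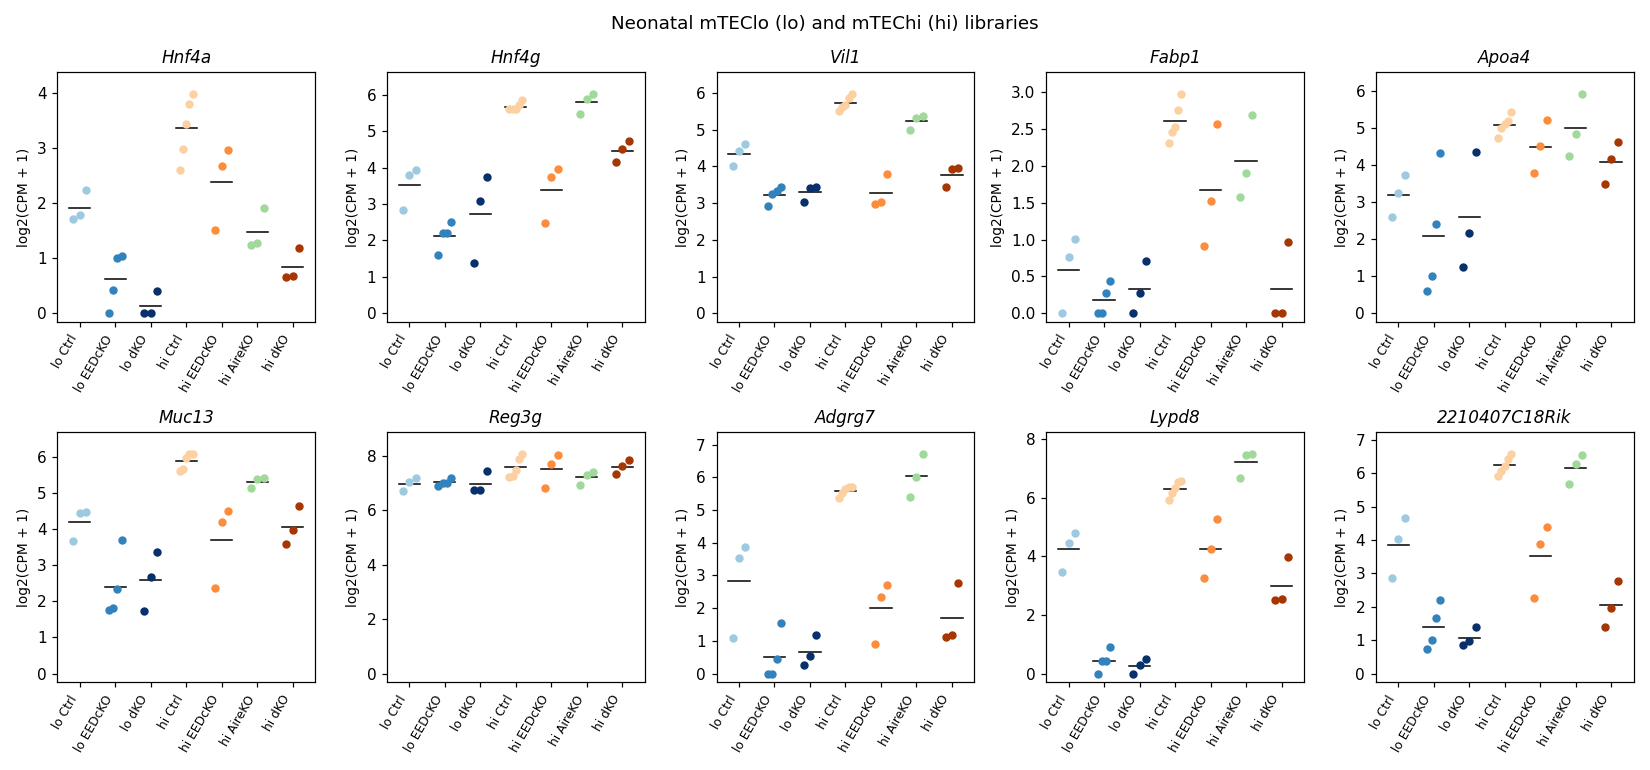
Levels of the 10 genes in each of the 24 neonatal libraries, as log2(CPM + 1), by group (lo, mTEClo; hi, mTEChi; dKO, AireEEDdKO), with horizontal bars at group means. Hnf4g, Vil1 and Muc13 are lower in EEDcKO than in Ctrl mTEChi without overlap, the Reg3g ranges overlap, and in mTEChi Hnf4a is lowest in AireKO and AireEEDdKO.

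The effect of EED was read first in neonatal mTEChi with Aire intact, EEDcKO against Ctrl. Hnf4g, Vil1 and Muc13 fell, and Reg3g, Apoa4, Fabp1 and Hnf4a did not pass the test. These 3 of 7 genes stand against 5.4% of all genes called lower. Hnf4g measured 47.8, 47.4, 56.4, 51.5 and 47.8 CPM in Ctrl and 12.4, 4.59 and 14.5 in EEDcKO. It fell by 2.33 on the log2 scale (SE 0.38, adjusted p = 0.0001). The Ctrl libraries were nearly equal and all far above the EEDcKO ones.

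Vil1 measured 48.4, 44.5, 61.9, 57.3 and 49.7 CPM in Ctrl and 6.81, 7.22 and 12.9 in EEDcKO. It fell by 2.52 (SE 0.22, adjusted p = 8.18e-08). Muc13 measured 50.1, 66.4, 66.6, 47.5 and 61.8 CPM in Ctrl and 17.3, 4.16 and 21.7 in EEDcKO. The groups of both genes were well apart, although Muc13 varied more among the EEDcKO libraries, with replicate 2 the lowest. Muc13 fell by 2.09 (SE 0.45, adjusted p = 0.0012). All 3 calls were kept with any 1 library left out, with age in days as a term and with DESeq2.

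Hnf4a measured 5.06, 9.82, 6.88, 14.8 and 12.9 CPM in Ctrl and 1.86, 6.78 and 5.35 in EEDcKO, which overlap. Its log2 difference of -1.003 (SE 0.42) had an adjusted p of 0.071, and became a call without mTEChi Ctrl replicate 1 (-1.15, adjusted p = 0.047). Fabp1 had 8, 10, 25, 18 and 17 counts in Ctrl and 8, 4 and 6 in EEDcKO, a difference of -1.24 (SE 0.57, adjusted p = 0.097) that became a call without EEDcKO replicate 1 (-1.92, adjusted p = 0.022). For both genes the call turned on 1 library. Apoa4 measured between 25.3 and 42.2 CPM in Ctrl and 35.9, 12.7 and 21.7 in EEDcKO (-0.57, SE 0.65, adjusted p = 0.53). Reg3g measured 239, 267, 178, 149 and 153 CPM in Ctrl and 263, 113 and 206 in EEDcKO, and differed by -0.03 (SE 0.23, adjusted p = 0.94).

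The 3 genes added for their fall had these values. Adgrg7 measured 51.8, 50.8, 48.7, 45.4 and 40.5 CPM in Ctrl and 5.58, 0.875 and 4.09 in EEDcKO, a fitted log2 difference of -3.97. 2210407C18Rik measured 84.4, 94.1, 65.7, 72.6 and 59.5 CPM in Ctrl and 19.8, 13.8 and 3.77 in EEDcKO (-2.66). Lypd8 measured 94.5, 91.3, 78.7, 59.7 and 69.8 CPM in Ctrl and 18.0, 8.53 and 37.7 in EEDcKO (-1.88). No Ctrl library was as low as any EEDcKO library in these genes. These values chose the genes, so their place among all falls says nothing more, and Gm15681, no member, stood at -3.60.

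Lists of other gut genes, which hold none of the 10, were counted beside them. Of all genes, 5.4% were called lower and 8.48% higher. Of 23 brush border enzymes and transporters tested, 6 fell and none rose, led by Sis, sucrase-isomaltase, at -3.39. Of 15 genes of brush border structure, 4 fell, led by Anks4b, a scaffold of microvillar tips, at -3.18, and Espn rose. The lipid list had 5 of 16 lower, among them Fabp2 (-5.06), the intestinal fatty acid carrier, and Apoc3 (-2.52). Surface and secreted genes had 7 of 17 lower, led by Ceacam20 (-3.14), and mucosal defence 4 of 15, led by Muc3 (-2.33). Of 19 transcription factors, 2 fell (Isx at -3.71 and Creb3l3 at -1.95) and 2 rose (Gata6 at 2.05 and Ppara at 1.04). The medians were -0.50 for enzymes, -0.38 for structure, -0.40 for lipid, -0.67 for surface, -0.86 for defence and 0.39 for factors, against -0.001 over all genes.

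Lists of other cell types stood as follows in the same comparison. Mesenchymal markers were higher for 3 of 7 genes, with 249 to 333 CPM summed in Ctrl and 497 to 781 in EEDcKO, and no marker of that list was at 0 in either group. Hepatocyte markers, which share HNF4 targets with the gut, were lower for 7 of 13, and myeloid markers for 3 of 7. None of 7 cortical markers was called, 1 of 11 medullary markers was higher, and 1 of 12 microfold, 1 of 9 goblet and 2 of 9 tuft markers were higher. Thymocyte and endothelial markers had 1 of 8 and 1 of 4 lower. Their part in the fall of Hnf4g, Vil1 and Muc13 was not tested.

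Next, EED was lost from cells that also lacked Aire, AireEEDdKO against AireKO in neonatal mTEChi. Hnf4g, Vil1 and Fabp1 fell, 3 of 7 genes against 2.78% of all genes called lower. Vil1 measured 39.1, 40.6 and 30.8 CPM in AireKO and 14.1, 9.82 and 14.4 in AireEEDdKO, and fell by 1.49 (SE 0.24, adjusted p = 0.00015). Hnf4g measured 57.6, 64.1 and 43.2 CPM in AireKO and 21.8, 25.4 and 16.7 in AireEEDdKO, and fell by 1.37 (SE 0.39, adjusted p = 0.017). Neither gene overlapped between the groups. The Hnf4g call was lost without AireEEDdKO replicate 3 (-1.21, adjusted p = 0.08) or AireKO replicate 2 (-1.25, adjusted p = 0.075).

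Fabp1 had 8, 4 and 7 counts in AireKO and 0, 0 and 3 in AireEEDdKO. With so few counts the pooled ratio was 0.156, with a 95% counting interval from 0.0295 to 0.529. Its adjusted p of 0.04 rose to 0.12 without AireEEDdKO replicate 1 or 2, to 0.15 without AireKO replicate 1 and to 0.073 without AireKO replicate 2. Muc13 measured 41.1, 41.3 and 34.5 CPM in AireKO and 14.7, 10.98 and 23.7 in AireEEDdKO, without overlap. Its log2 difference of -1.18 (SE 0.49) missed the test at an adjusted p of 0.1 over the shared fit. It was called with replicate numbers as a block (-1.15, adjusted p = 0.0058), where numbers were taken as pairs from the data alone. It was also called without the block in these libraries alone (-1.15, adjusted p = 0.011).

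Hnf4a was close to the counting floor after Aire loss, with 2, 4 and 5 counts in AireKO and 1, 1 and 4 in AireEEDdKO (-0.93, SE 0.80, adjusted p = 0.48), although the CPM did not overlap. Apoa4 measured 59.6, 27.6 and 17.8 CPM in AireKO and 23.6, 16.8 and 10.3 in AireEEDdKO (-1.05, SE 0.76, adjusted p = 0.39). Reg3g measured 169, 158 and 119.8 CPM in AireKO and 229.6, 198 and 160.1 in AireEEDdKO (0.40, SE 0.26, adjusted p = 0.34). The groups of Apoa4 and of Reg3g overlapped.

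The values of the 3 added genes, which served to choose them, were these. Adgrg7 measured 63.7, 104 and 41.3 CPM in AireKO and 5.89, 1.16 and 1.28 in AireEEDdKO, a log2 difference of -4.75. 2210407C18Rik measured 93.2, 75.8 and 50.0 CPM in AireKO and 5.89, 2.89 and 1.604 in AireEEDdKO (-4.50). Lypd8 measured 178, 174 and 100.3 CPM in AireKO and 14.7, 4.62 and 4.81 in AireEEDdKO (-4.29). The next falls among called genes without overlap were Prex2 at -3.71 and Pla2g4c at -3.65. This ranking required a mean of at least 10 CPM in AireKO and a mean count above 3 in AireEEDdKO. Muc3, which is not in this ranking, fell further, as given with the lists.

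In the lists of other gut genes there were 2 lower and 2 higher of 23 enzymes and transporters, 3 lower and 1 higher of 16 lipid genes, 1 lower of 15 structural genes and 1 lower of 15 defence genes. Surface and secreted genes had 5 of 17 lower and 1 higher, and transcription factors 1 lower and 1 higher of 19. Of all genes, 2.78% were called lower and 6.69% higher. Muc3 fell by 4.47, Apoc3 by 2.57 and Apoa1 by 2.38 on the log2 scale, and Gata6 rose by 3.42. Mesenchymal markers were again higher for 3 of 7 (250 to 351 CPM summed in AireKO, 421 to 735 in AireEEDdKO), and their part was not tested. Whether the Aire genotype changed the EED effect was tested directly. None of the 7 genes passed, against 1.25% of all genes by this test, with the smallest adjusted p for Vil1 (1.03, SE 0.33, adjusted p = 0.11) and an unadjusted p under 0.05 for that gene alone. DESeq2 also called none.

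**Figure D3:**
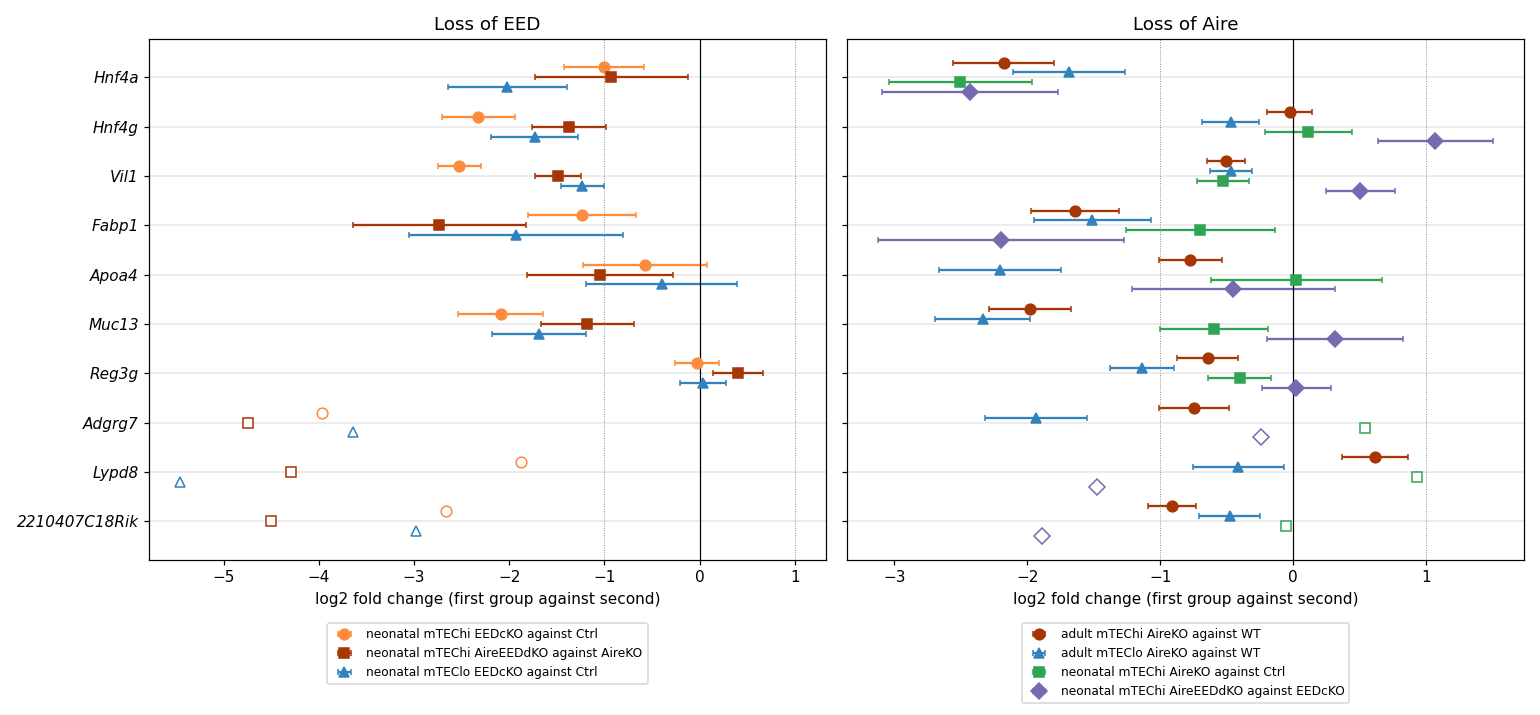
Fitted log2 fold changes of the 10 genes after loss of EED (left) and loss of Aire (right), with SE bars over libraries, and dotted lines at 2-fold changes. Open symbols are the 3 genes added for their fall, drawn without error and without a test, and the comparisons in a panel share control libraries in part.

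In neonatal mTEClo, EEDcKO against Ctrl, 4 of the 7 genes fell, Hnf4a, Hnf4g, Vil1 and Muc13, against 6.22% of all genes called lower and 9.51% called higher. None of the 7 was called higher. Hnf4g measured 14.2, 13.0 and 6.19 CPM in Ctrl and 4.71, 3.59, 3.63 and 2.02 in EEDcKO, and fell by 1.73 (SE 0.46, adjusted p = 0.0059). Vil1 measured 20.3, 23.5 and 15.2 CPM in Ctrl and 8.42, 8.98, 9.81 and 6.56 in EEDcKO, and fell by 1.23 (SE 0.22, adjusted p = 0.00026). Neither gene overlapped. Muc13 measured 20.6, 21.04 and 11.8 CPM in Ctrl and 2.36, 2.52, 11.9 and 4.04 in EEDcKO, where replicate 3 reached the lowest Ctrl value. It fell by 1.69 (SE 0.49, adjusted p = 0.012).

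Hnf4a was scarce, with 11, 7 and 4 counts in Ctrl and 1, 0, 5 and 4 in EEDcKO. Its fall of 2.02 (SE 0.62, adjusted p = 0.017) was not called without mTEClo Ctrl replicate 1 (-1.81, adjusted p = 0.085). Fabp1 had 3, 2 and 0 counts in Ctrl and 0, 1, 1 and 0 in EEDcKO, a pooled ratio of 0.211 with an interval from 0.0201 to 1.29, which this depth cannot resolve. Apoa4 measured 12.2, 8.42 and 5.06 CPM in Ctrl and 1.01, 4.31, 19.0 and 0.505 in EEDcKO (-0.40, SE 0.79, adjusted p = 0.74). EEDcKO replicate 3, the high one of Apoa4, was high in Muc13 as well. Reg3g measured 131, 104 and 145 CPM in Ctrl and 117, 146, 128 and 128 in EEDcKO (0.04, SE 0.24, adjusted p = 0.94).

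Lypd8 had 80, 60 and 18 counts in mTEClo Ctrl and 1, 1, 4 and 0 in EEDcKO, a fitted log2 difference of -5.46. Adgrg7 had 40, 30 and 2 counts in Ctrl and 0, 1, 9 and 0 in EEDcKO (-3.64), with overlap because of Ctrl replicate 3. 2210407C18Rik had 72, 44 and 11 counts in Ctrl and 2, 6, 17 and 4 in EEDcKO (-2.98). In all 3 genes Ctrl replicate 3, a pool of male and female mice aged 1 day, was the lowest Ctrl library.

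The enterocyte lists in mTEClo had 7 of 15 structural genes lower and 2 higher, 7 of 23 enzymes lower and 1 higher, 4 of 16 lipid genes lower and 1 higher, 5 of 15 defence genes lower, 6 of 17 surface genes lower and 3 higher, and 1 of 19 factors lower and 4 higher. Of all genes, 6.22% were called lower and 9.51% higher. Anks4b (-4.49), Apob (-4.12), the scaffold apolipoprotein of chylomicrons, Sis (-3.88) and Muc3 (-3.01) were the largest falls named, and Gata6 rose by 4.69. Markers of other cells moved strongly in the same libraries. Mesenchymal markers were higher for 6 of 7, with 132 to 135 CPM summed in Ctrl and 564 to 839.5 in EEDcKO, and all 7 cortical thymic epithelial markers were lower, with 2417 to 3608 CPM in Ctrl and 432 to 1118 in EEDcKO. Medullary markers had 1 of 11 lower. The part of these shifts in the values of the 4 genes was not tested.

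Vil1 was the only one of the 7 genes whose EED effect differed between mTEChi and mTEClo by the interaction test, which called 1.58% of all genes. Its fall was larger in mTEChi by 1.29 on the log2 scale (SE 0.31, adjusted p = 0.031). This call was lost, with adjusted p between 0.055 and 0.11 and differences between -1.06 and -1.27, when any of 6 libraries was left out (mTEChi Ctrl 3, mTEChi EEDcKO 1 or 2, mTEClo Ctrl 1 or 3, mTEClo EEDcKO 3). It was also lost without a filter on low counts (adjusted p = 0.051) and in the 4 groups alone (0.058). For Lypd8 the difference between the EED effects, given as a value only, was 3.58, the fall in mTEClo being the larger one.

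Loss of Aire was next read on the EEDcKO background. In neonatal mTEChi, AireEEDdKO against EEDcKO, Hnf4a alone fell, 1 of 7 genes against 8.36% of all genes called lower. It had 3, 31 and 17 counts in EEDcKO and 1, 1 and 4 in AireEEDdKO, and fell by 2.43 (SE 0.66, adjusted p = 0.011). The call was lost without EEDcKO replicate 2, the highest library (-2.12, adjusted p = 0.055), and when the fit held these libraries alone Hnf4a did not pass the filter on low counts. Hnf4g was higher in each AireEEDdKO library than in each EEDcKO library, at 1.07 (SE 0.43, adjusted p = 0.076), and became a call without EEDcKO replicate 3 (1.50, adjusted p = 0.046). Vil1 (0.50), Muc13 (0.31), Reg3g (0.02) and Apoa4 (-0.45) did not pass. Fabp1 had 8, 4 and 6 counts in EEDcKO against 0, 0 and 3, a ratio of 0.238 with an interval from 0.045 to 0.817 (adjusted p = 0.09). This became a call without AireEEDdKO replicate 3 (adjusted p = 0.031) or EEDcKO replicate 2 (0.045). The added genes, given as values only, differed by -1.89 (2210407C18Rik), -1.475 (Lypd8) and -0.24 (Adgrg7), each with overlap of the libraries.

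In mTEClo, AireEEDdKO against EEDcKO, none of the 7 genes was called, against 5.3% of all genes, and DESeq2 called none either. Hnf4a (1, 0 and 0 counts against 1, 0, 5 and 4, ratio 0.117, interval 0.00269 to 0.819) and Hnf4g (0.99, SE 0.46) had an unadjusted p under 0.05. Without AireEEDdKO replicate 3, Hnf4g was called at 1.54 (adjusted p = 0.013).

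The effect of Aire with EED intact was read in neonates and in adults. In neonatal mTEChi, AireKO against Ctrl, Hnf4a was the 1 gene of 7 called lower, against 12.8% of all genes. It measured 5.06, 9.82, 6.88, 14.8 and 12.9 CPM in Ctrl and 1.37, 2.76 and 1.41 in AireKO, and fell by 2.503 (SE 0.54, adjusted p = 0.0016). All AireKO libraries were below all Ctrl libraries. Hnf4g measured between 47.4 and 56.4 CPM in Ctrl and 57.6, 64.1 and 43.2 in AireKO (0.11, SE 0.32, adjusted p = 0.83). Of the HNF4 receptors, the scarcer one was thus lower, and the other was not called and overlapped the controls. Vil1 differed by -0.53 (SE 0.20, adjusted p = 0.044), without overlap but short of 2-fold. Muc13 measured between 47.5 and 66.6 CPM in Ctrl and 41.1, 41.3 and 34.5 in AireKO (-0.60, SE 0.41, adjusted p = 0.29), and Fabp1 (-0.70), Reg3g (-0.40) and Apoa4 (0.02) overlapped. Lypd8 was higher in AireKO as a description, at 178, 174 and 100.3 CPM against 59.7 to 94.5, with a log2 difference of 0.93. Adgrg7 (0.54) and 2210407C18Rik (-0.05) overlapped. Tuft markers were lower for 6 of 9, goblet markers for 5 of 9 and hepatocyte markers for 8 of 13 in the same comparison, and their part was not tested.

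In adult mTEChi, AireKO against WT, Hnf4a, Fabp1 and Muc13 fell, 3 of 10 genes against 17.8% of all genes. Muc13 ran from 44.5 to 99.01 CPM in WT (median 77.3) and measured 13.6, 19.6, 19.9 and 24.2 in AireKO. It fell by 1.98 (SE 0.31, adjusted p = 4.55e-06). Hnf4a ran from 8.39 to 19.6 CPM in WT (median 16.1) and measured 1.76, 4.91, 2.05 and 4.18 in AireKO, a fall of 2.18 (SE 0.38, adjusted p = 2.25e-05). Fabp1 ran from 4.801 to 11.8 CPM in WT (median 8.21) and measured 1.76, 2.86, 3.08 and 2.51 in AireKO, and fell by 1.64 (SE 0.33, adjusted p = 0.00014). In each of these 3 genes all AireKO libraries were below all WT libraries. These falls were kept with any 1 library left out, with males alone and with age in weeks as a term.

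The other adult mTEChi changes were smaller than 2-fold. 2210407C18Rik ran from 82.6 to 145 CPM in WT and measured 38.2, 47.9, 69.2 and 66.8 in AireKO (-0.91, SE 0.18, adjusted p = 0.0001). Apoa4 ran from 47.1 to 67.5 CPM in WT and measured between 32.0 and 38.3 in AireKO (-0.77, adjusted p = 0.0069), and Vil1 from 70.4 to 101 against 56.2 to 64.2 (-0.51, adjusted p = 0.0042). These 3 genes did not overlap between genotypes, while Adgrg7 (-0.74, adjusted p = 0.018) and Reg3g (-0.64, adjusted p = 0.02) did. Hnf4g ran from 61.0 to 86.1 CPM in WT and measured 54.8, 65.9, 79.4 and 81.0 in AireKO (-0.03, SE 0.17, adjusted p = 0.91). Lypd8 went the other way: it ran from 119 to 187 CPM in WT and measured 198, 244, 204 and 251 in AireKO, without overlap (0.61, SE 0.25, adjusted p = 0.038). It passed 2-fold with age in weeks as a term (1.02, adjusted p = 0.0025), and 2210407C18Rik did so with males alone (-1.04), with library size alone (-1.07) and without AireKO replicate 3 (-1.08) or 4 (-1.01). By adjusted p alone 9 of the 10 genes passed, 8 of them lower, against 28.8% of all genes lower by that rule.

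**Figure D4:**
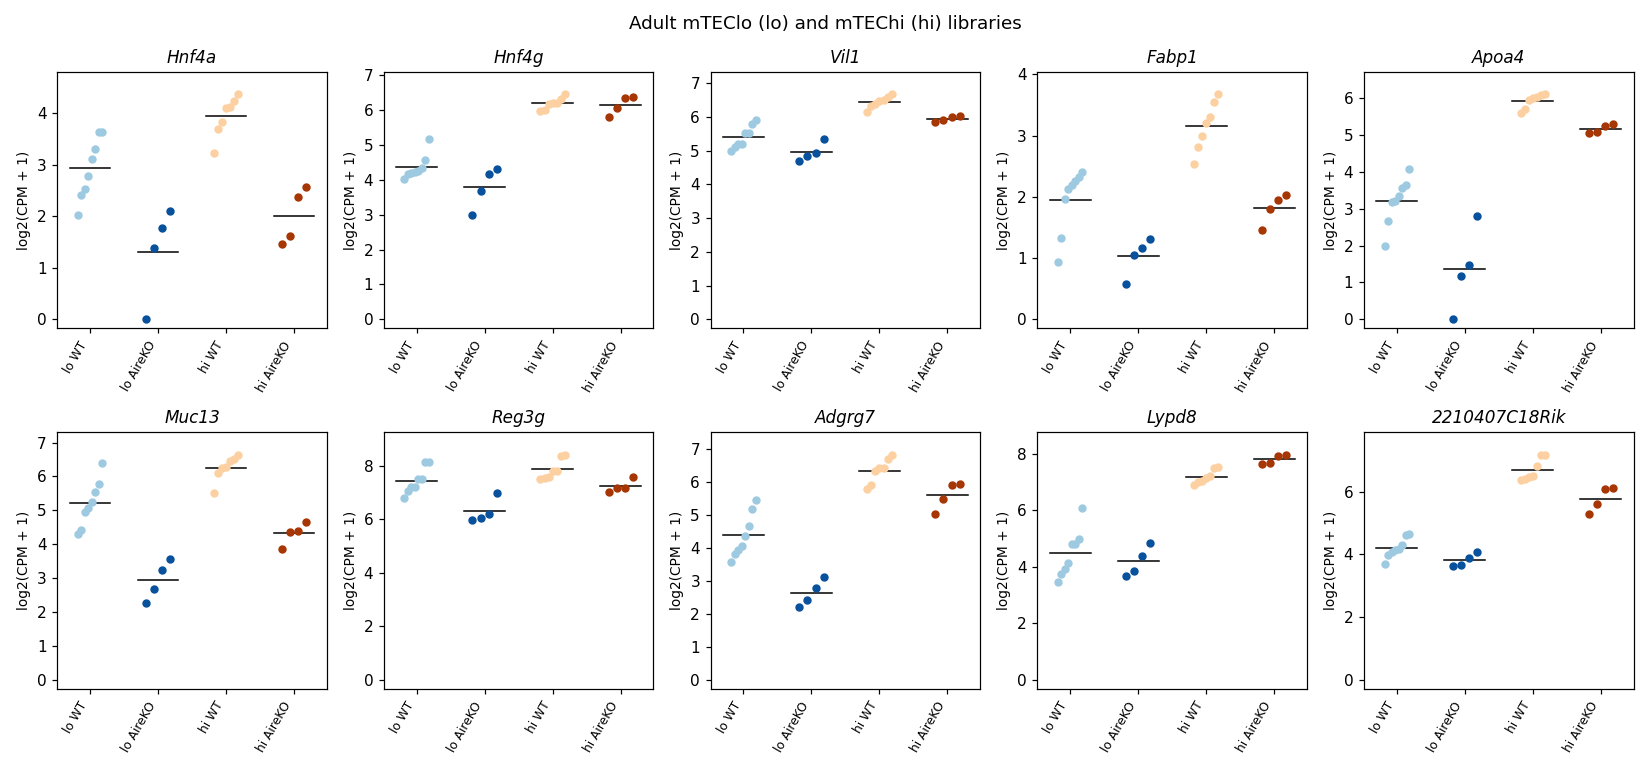
Levels of the 10 genes in each of the 23 adult libraries, as log2(CPM + 1), by group (lo, mTEClo; hi, mTEChi), with horizontal bars at group means. Muc13 is lower in AireKO in both gates without overlap, Hnf4a is so in mTEChi, Hnf4g overlaps WT in mTEChi, and Lypd8 in mTEChi is above all WT libraries.

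In adult mTEClo, AireKO against WT, 6 of 10 genes were called lower, against 3.88% of all genes. Muc13 ran from 18.6 to 83.9 CPM in WT (median 34.7) and measured 5.41, 3.76, 10.7 and 8.499 in AireKO, and fell by 2.34 (SE 0.36, adjusted p = 2.01e-05). Adgrg7 ran from 10.98 to 42.8 CPM in WT (median 17.5) and measured 5.95, 4.38, 3.57 and 7.77 in AireKO, and fell by 1.94 (SE 0.39, adjusted p = 0.0005). Both genes were without overlap. Apoa4 ran from 3.00 to 15.9 CPM in WT and measured 5.95, 1.25, 1.79 and 0 in AireKO (-2.21, adjusted p = 0.00084), and Hnf4a ran from 3.05 to 11.5 against 1.62, 0, 3.28 and 2.43 (-1.69, adjusted p = 0.0043). Fabp1 (-1.51, adjusted p = 0.013) and Reg3g (-1.14, adjusted p = 0.0009) completed the calls. In these 4 genes at least 1 AireKO library reached the WT range. Cortical markers were higher for 5 of 7 in these libraries (464 to 599.7 CPM summed in WT, 711 to 878 in AireKO) and microfold markers lower for 5 of 12, and their part was not tested.

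Vil1 (-0.47, adjusted p = 0.029), 2210407C18Rik (-0.48, adjusted p = 0.13), Hnf4g (-0.47, adjusted p = 0.11) and Lypd8 (-0.41, adjusted p = 0.41) were not called in mTEClo. Age differed between these groups. With age in weeks as a term, Hnf4a (-1.07, adjusted p = 0.2), Fabp1 (-1.10, adjusted p = 0.2) and Reg3g (-0.70, adjusted p = 0.12) were no longer called, and with males alone the same 3 genes were lost. Fabp1 was lost as well without AireKO replicate 4 (-1.16, adjusted p = 0.084). With only the libraries that held mitochondrial counts, Muc13 (-3.05), Hnf4a (-2.92), Adgrg7 (-2.02) and Reg3g (-1.41) were called, Hnf4g was gained at -1.07 (adjusted p = 0.02), and Apoa4 (-1.13, adjusted p = 0.13) and Fabp1 (-1.31, adjusted p = 0.19) were lost.

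Whether the Aire effect differed between adult mTEChi and mTEClo was tested for all 10 genes, and none was called, against 13.7% of all genes. Apoa4 (1.43, SE 0.54, adjusted p = 0.05), Adgrg7 (1.19, SE 0.47, adjusted p = 0.063) and Lypd8 (1.03, SE 0.42, adjusted p = 0.076) came closest, and were the genes with an unadjusted p under 0.05. DESeq2 called Apoa4 and Adgrg7. Without mTEClo AireKO replicate 1, the library with most Apoa4, the Apoa4 difference became 2.40 (adjusted p = 0.0033). Apoa4 was also called without mTEClo WT replicate 3 or 8, Adgrg7 without mTEChi AireKO 1, mTEChi WT 1, mTEClo WT 6 or mTEClo WT 8, and Lypd8 without mTEClo AireKO 1, mTEClo WT 4 or mTEClo WT 8, with adjusted p between 0.02 and 0.049.

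The lists of other gut genes were counted in the Aire comparisons as well. The shares of all genes called lower differed, at 17.8% in adult mTEChi, 3.88% in adult mTEClo and 12.8% in neonatal mTEChi. In adult mTEChi, 12 of 15 defence genes, 12 of 23 enzymes and transporters, 9 of 18 transcription factors, 8 of 16 lipid genes, 7 of 15 structural genes and 6 of 18 surface genes were lower, with 1 higher in each of defence, enzymes and factors. In adult mTEClo the lower counts were 3, 4, 0, 2, 2 and 5 of the same lists, and in neonatal mTEChi 10 of 15, 7 of 23, 7 of 19, 6 of 16, 3 of 15 and 3 of 17. Summed levels in adult mTEChi did not all follow these counts. Transcription factors ran from 752 to 916 CPM in WT and from 903 to 1165 in AireKO, and defence from 1320 to 1729 and from 1480 to 1731. Enzymes and transporters ran from 593 to 790 and from 353 to 392, and lipid genes from 886.5 to 1204 and from 609 to 713. Structural and surface genes overlapped. Cdx2 (-7.04) and Gata5 (-7.05), which specify gut identity, Alpi (-5.47), the brush border phosphatase, Fabp2 (-6.84) and Reg3b (-9.32) were the largest falls named in adult mTEChi, although Reg3g, the paralogue of Reg3b, was not called there. Only 17 of 20 listed factors and 15 of 18 defence genes had any count in AireKO mTEChi, against all of them in WT. Falls of this size can rest on few or no counts, so their size is poorly determined. Slc2a2, a glucose transporter, rose by 1.50. In the same comparison 7 of 12 hepatocyte, 7 of 9 goblet, 6 of 7 thymocyte, 4 of 7 mesenchymal, 3 of 12 microfold, 2 of 10 tuft, 3 of 7 myeloid, 1 of 3 endothelial, 2 of 7 cortical and 1 of 11 medullary markers were lower. The summed thymocyte markers ran from 88.2 to 124 CPM in WT and from 44.8 to 58.5 in AireKO, and the part of these shifts was not tested.

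**Figure D5:**
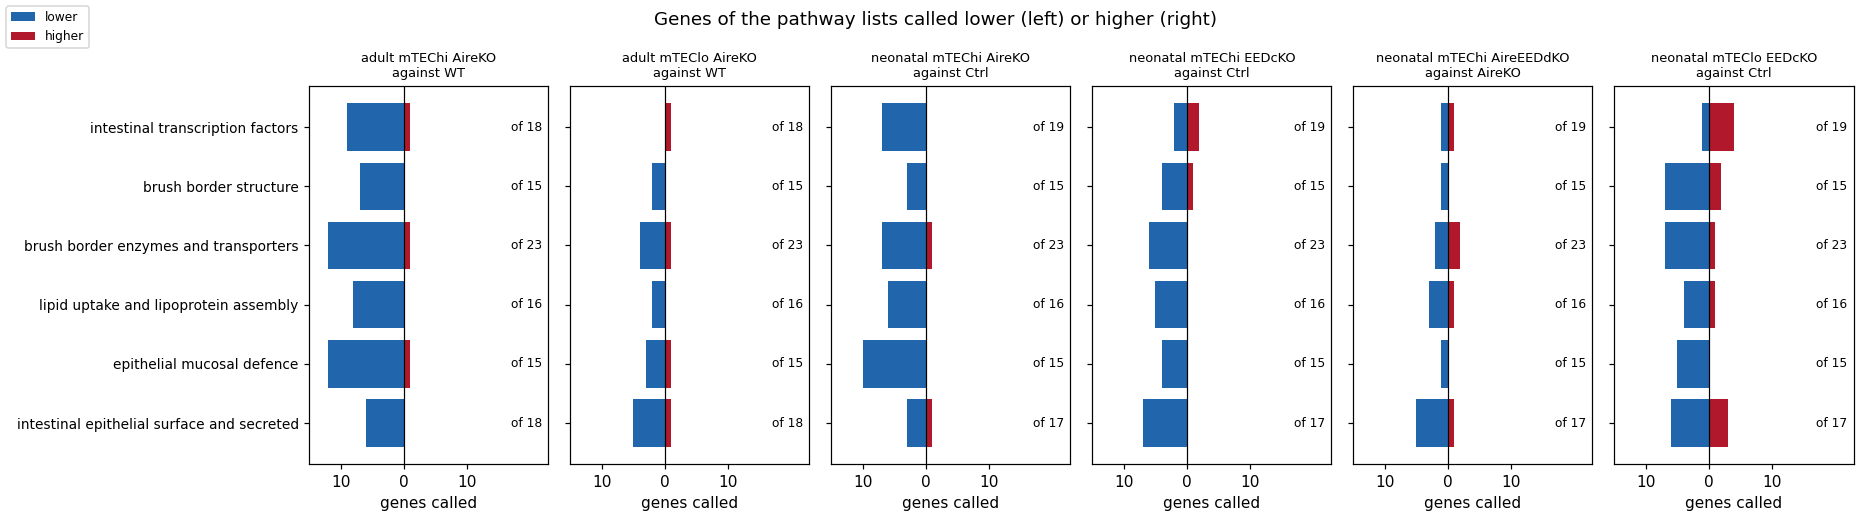
Number of genes called lower (left of 0) or higher (right of 0) in 6 lists of gut genes that hold none of the 10 members, for 6 comparisons, with the number tested at the right of each row. Adult mTEChi AireKO has the most lower calls, with 12 of 15 in mucosal defence, and EEDcKO against Ctrl in neonatal mTEChi has 6 of 23 enzymes and transporters lower. In the order of the panels, 17.8%, 3.88%, 12.8%, 5.4%, 2.78% and 6.22% of all genes were called lower.

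Likeness over libraries was taken as the smaller of the correlations in the adult and the neonatal table. Across 23 adult and 24 neonatal libraries, Hnf4g was most like Me1 (Pearson r of log2 CPM 0.94 and 0.96), 2310001H17Rik and Anks4b (0.96 and 0.94). Vil1 was most like Adgrg7 (0.93 and 0.92), Nlrp9b and Muc3, and Adgrg7 in turn most like Vil1. 2210407C18Rik was most like Ces2a (0.93 in both), Lypd8 like Erv3 (0.96 and 0.95) and Muc13 like Vnn3 (0.93 and 0.89). Hnf4a was most like Saa1 (0.89 and 0.87), Fabp1 like Krt84 (0.88 in both) and Apoa4 like Lyz1 (0.92 and 0.88). Reg3g had the weakest match, Galnt3 (0.75 and 0.70). The libraries differ in gate and genotype, so these values describe shared differences between groups, over 18546 genes compared. Adgrg7, Lypd8 and 2210407C18Rik were chosen by their neonatal values. Their neonatal correlations with other genes that fell after EED loss therefore carry no independent weight.

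The neighbourhoods of the members were read within 200 kb. The neighbours whose changes are given were named because they were called, so they do not describe their regions as a whole. Lypd8 and 2210407C18Rik both lie on chromosome 11, at 58379043-58390728 and 58608204-58616075, 217.5 kb apart, with Olfr328 and Olfr329-ps between them. In neonatal mTEChi those olfactory genes were lower in EEDcKO by 3.67 and 2.64, and in adult mTEChi AireKO by 6.36 and 7.19. In AireEEDdKO against AireKO neither was called. Falls as large as those in the adult libraries can rest on few or no counts, so their size is poorly determined. Adgrg7, on chromosome 16 at 56724609-56795855, had Tmem45a beside it, lower in EEDcKO by 2.45, and the pseudogene Gm15693 within it on the opposite strand, with a log2 change of -2.65. Apoa4, on chromosome 9 at 46240696-46243459, lies beside Apoc3 and Apoa1, and Apoc3 fell by 2.52 in EEDcKO mTEChi where Apoa4 was not called. Muc13 was flanked by genes that moved against it, Itgb5 (1.54) and Heg1 (1.47) both rising in EEDcKO mTEChi while Muc13 fell. Counting ignored strand, and 6 members overlap another annotated gene. Hnf4a overlaps Hnf4aos and Gm25881, Hnf4g overlaps Gm23237 and Gm37000, and Apoa4 overlaps Gm10680 and Gm47528. Vil1 overlaps Usp37, Muc13 overlaps Gm15657 and Adgrg7 overlaps Gm15693. Reads cannot be told apart where such genes overlap, and whether they were counted or dropped was not checked.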

How the data were processed

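RNA-seq libraries of sorted mTECs, 23 adult and 24 neonatal, were analysed from count tables. The authors trimmed reads with fastp 0.20.0, aligned them to mm10 with STAR 2.7.3a, removed duplicates with Picard 2.21.1 and deposited raw counts per gene from HTSeq 0.11.2 without regard to strand. SAMtools 1.9 is also named in the submitters' processing notes. Gene names came from GENCODE M21, and promoter windows from RefSeq.

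Each table was fitted on its own over all its groups with edgeR 4.0.16 in R 4.3.3 (filterByExpr, TMM, quasi-likelihood F-test, prior count 0.125), which tested 19310 adult and 20196 neonatal genes. A call required a Benjamini-Hochberg adjusted p under 0.05 over all genes tested and at least a 2-fold change. DESeq2 1.42.0, other scalings, no filter, other terms, subsets of libraries and leaving out each library were alternatives. Intervals and the floor of 3 counts cover counting error only. The share of all genes without overlap between groups was not counted. A lack of overlap therefore describes the libraries of that gene and is not a test, and small groups can separate without a change. In simulated data 94.8% of 4-fold and 84.8% of 2.5-fold changes were recovered for adult mTEChi AireKO against WT (18165 genes), and 82.8% and 58.6% for neonatal AireEEDdKO against AireKO (19340 genes).

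The members and lists were chosen with earlier results of these data known. Named genes are the 10 members, the called genes with the largest changes in each list, and the members' called neighbours within 200 kb. Also named are the 3 genes most like each member and, within limits on level, count and overlap, the falls nearest to those of the added genes. The labels do not say that libraries came from separate animals, so p-values measure the spread between these samples, which may be technical. Same-numbered samples deviated together, with every correlation over 0.1, between adult AireKO mTEChi and mTEClo (0.139 to 0.222) and between neonatal AireEEDdKO and AireKO mTEChi (0.108 to 0.213), and numbers were taken as pairing there, from the data alone. In adult AireKO, however, mTEChi replicates 1 and 3 correlated best with mTEClo replicates 2 and 4. Replicates 1 and 2 came from mice aged 5 weeks, and 3 and 4 from mice aged 6 weeks. Pairs and age cannot be told apart in that comparison. In neonatal AireEEDdKO and AireKO mTEChi, same-numbered libraries shared age and sex labels, and replicate 3 had the largest total count in both groups. Pairs cannot be told apart from age, sex and depth there.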

Additional observations from a re-analysis of the deposited data

Results flagged for a closer look

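In 60 pairs of a member and a group of 4 to 10 libraries, 3 single libraries stood apart from the rest of their group, where chance flags about 1 in 20. Hnf4g measured 34.9 CPM in adult mTEClo WT replicate 5, against 22.9 in the nearest library. Lypd8 measured 67.2 CPM in adult mTEClo WT replicate 1, against 30.5 in the nearest. Reg3g measured 124.8 CPM in adult mTEClo AireKO replicate 4, against 72.0 in the nearest. The EED effect on Vil1 differed between mTEChi and mTEClo by the interaction test (-1.29 on the log2 scale).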

How the results depend on the processing

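No called value changed sign under any alternative run. With no minimum change, 9 members were called in adult mTEChi AireKO against WT and 2 in neonatal mTEChi AireKO against Ctrl (main 3 and 1). For the difference of the adult Aire effects between gates (main 0), DESeq2 called 2 and the fit with no filter 3. In adult mTEClo AireKO against WT (main 6), age in weeks as a term or males alone left 3. The difference of EED effects between gates (main 1) gave 0 with no filter and 0 in the groups compared alone, and AireEEDdKO against EEDcKO in mTEChi (main 1) gave 0 in the groups compared alone. Where replicate numbers were only shared numbers (correlations from -0.319 to 0.14), the replicate block, and the same libraries without it in brackets, gave 5 (5) in adult mTEChi AireKO against WT, 0 (0) in neonatal mTEChi AireKO against Ctrl, 0 (0) in AireEEDdKO against EEDcKO and 1 (2) of 4 in neonatal mTEClo EEDcKO against Ctrl. Hnf4a did not pass the filter in the latter 3 comparisons. Where numbers were taken as pairing, the block changed no call of a tested gene against the same libraries without it. Muc13 in AireEEDdKO against AireKO was called in those libraries alone, with the block and without it.

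Leaving out 1 library gave 3 to 4 calls in adult mTEChi AireKO against WT, 5 to 6 in mTEClo AireKO against WT, 6 to 9 in WT and 6 to 8 in AireKO mTEChi against mTEClo, and 0 to 3 for the adult difference between gates. In neonates it gave 3 to 4 in mTEChi EEDcKO against Ctrl, 1 to 1 in mTEChi AireKO against Ctrl, 1 to 3 in AireEEDdKO against AireKO, 1 to 2 in mTEChi AireEEDdKO against EEDcKO, 3 to 4 in mTEClo EEDcKO against Ctrl, 0 to 1 in mTEClo AireEEDdKO against EEDcKO, 5 to 6 in Ctrl mTEChi against mTEClo, 0 to 1 for the EED difference between gates and 0 to 0 for the Aire and EED interaction.

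Over all genes, scaling by library size alone took the median log2 change from -0.015 to -0.176 in adult mTEChi AireKO against WT, from 0 to -0.13 in adult AireKO mTEChi against mTEClo, from -0.021 to -0.201 in the adult difference between gates, from 0.035 to -0.18 in neonatal mTEChi AireKO against Ctrl and from -0.012 to -0.146 in mTEChi AireEEDdKO against EEDcKO. The share of lower calls went from 78.3% to 89.6% in neonatal mTEChi AireKO against Ctrl and from 35.6% to 23% in the Aire and EED interaction. Without the filter, calls over all genes went from 4515 to 8046 in adult mTEChi AireKO against WT, from 6964 to 13803 in WT mTEChi against mTEClo, from 253 to 455 in the interaction and from 320 to 566 in the EED difference between gates. In the groups compared alone, mTEClo AireEEDdKO against EEDcKO went from 1071 to 40 and mTEChi AireEEDdKO against EEDcKO from 2696 to 1749. With age in weeks, adult mTEClo AireKO against WT went from 1602 to 1047. The causes of these shifts were not tested. Fits on libraries with mitochondrial counts alone could not be run for comparisons that need adult AireKO mTEChi.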
